A study of Homo sapiens with 3 samples.

Results

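The genes described here are antisense RNA genes, named with the ending -AS1 after the gene they face, together with the sense genes that come before that ending. A gene was included when the platform's probe-to-gene table gave it at least 1 probe set of its own and when a value of such a probe set lay above the 20th percentile of all values (3.47 on the log2 scale) in at least 1 array. Of 706 antisense genes with a probe set of their own, 557 passed and 149 did not, among 19775 genes of the whole array with their own probe set, of which 17544 passed the same filter. The 557 genes were thus chosen by measured level in the same arrays that are compared. The values nearest the cutoff were 3.4735 for the highest array of BABAM2-AS1, just inside, and 3.4665 for that of PHACTR2-AS1, just outside.

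Antisense RNA genes are transcribed from the strand opposite another gene, sometimes from a start site close to that of their partner and sometimes from within or beyond its body, and most of their RNAs are not known to be translated. Single antisense RNAs are known to raise or to lower the output of the gene they face, by acting on chromatin at the shared locus, on transcription itself or on the stability of the sense RNA, while most have no known effect. Several lie beside lineage regulators of lymphocytes, such as GATA3, LEF1 and ZEB1.

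Expression was measured on Affymetrix HG-U133 Plus 2 arrays in SupB15, a human B-precursor acute lymphoblastic leukemia (ALL) cell line labelled drug sensitive (1 array), and in SupB15-MR, its multidrug resistant derivative (2 arrays, labelled biological replicates). SupB15-MR cells are the survivors of mitoxantrone given in medium conditioned by a bone marrow stromal cell line, later kept without drug, and all 3 arrays were made from cells in normal medium. The study describes its SupB15-MR profiles as those of separate clones, and the label of the second array also names SupB15-MR5. No second SupB15 culture was measured. The p-values therefore hold no spread of SupB15. They rest on the spread between the 2 SupB15-MR arrays, which are of separate clones and not of 1 culture. Those from limma also rest on a variance prior taken over all tested probe sets. Where the 2 SupB15-MR values of a probe set are equal, its p-value rests on that prior alone. An exact permutation test of 1 array against 2 cannot go below p = 0.333.

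Some facts of the arrays bear on every value below. Both SupB15-MR arrays held exactly the same value in 39.7% of the probe sets that passed the filter, and all 3 arrays did in 10.0%. RMA does not usually give equal values on separate arrays, and whether the deposited values were processed further is not given in the sources used here. Among the 730 antisense probe sets that passed, these shares were higher, at 48.6% (355 probe sets) and 15.9% (116 probe sets). Control probe sets for 18S ribosomal RNA differed by a median of 6.96 towards SupB15-MR (log2, 3 probe sets), and the hybridization and poly(A) spike controls by medians of 2.55 and 1.56. The part of these control differences in the antisense values was not tested. Of 12 precursor B cell markers with their own probe set, all 12 lay above the median of all values (5.22) in SupB15 and 10 in each SupB15-MR array, against 1 of 7 T cell markers in every array, 2, 1 and 1 of 6 myeloid markers and 1, 0 and 0 of 8 stromal markers. Of the precursor B cell markers 5 were 2-fold higher in both SupB15-MR arrays and 3 lower, with differences of -6.38 in CD34 and -6.41 in VPREB1 and of 3.94 in RAG1 and 3.32 in RAG2.

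Antisense genes gave low signals. The median antisense gene value, taken as the mean of the log2 values of a gene's own probe sets, was 4.56 in SupB15 and 4.84 in SupB15-MR, against 5.67 and 5.77 over all genes. Of the 557 genes, 496 lay above the cutoff in every array, 16 only in SupB15, 42 only in SupB15-MR and 3 in SupB15 and 1 SupB15-MR array. The 42 genes above the cutoff only in SupB15-MR could differ in 1 direction only. In 437 genes the value came from 1 probe set, and in 120 from several, up to 8.

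Differences were described per gene, as a difference of at least 2-fold (1 on the log2 scale) in the same direction in each SupB15-MR array against the SupB15 array. By this measure 81 of 557 antisense genes (14.5%) were higher in SupB15-MR, where 12.9% of all genes were. In the other direction 23 antisense genes (4.13%) were lower, where 11.4% of all genes were. With this filter the share of higher genes was thus near that of all genes and the share of lower genes was below it. With only probe sets above the median of all values, 31.4% were higher, against 18.5% of all genes, and 9.3% lower, against 15.7%. Leaving out probe sets identical in both SupB15-MR arrays gave 28.6% higher, against 20.8%, and 5.92% lower, against 16.2%. Without any filter, 10.9% were higher, as of all genes, and 2.97% lower, against 9.64%. Of the antisense genes, 54.4% had a SupB15 value at least 1 unit above the cutoff, against 75.5% of all genes. Among these 303 better measured antisense genes, 13.2% (40) were higher, against 11.8% of all genes with such a value, and 6.93% (21) were lower, against 14.5%. The split between directions also depended on scaling: with the median of each array subtracted, 61 antisense genes (11%) were higher and 41 (7.36%) lower, beside 9.67% and 14.6% of all genes. The SupB15-MR arrays had medians of 5.27 and 5.28 against 5.08 in SupB15. With SupB15-MR replicate 1 alone, 35 genes were lower, and with replicate 2 alone, 26.

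The values of the higher and lower groups lay as follows. The 81 higher genes ran from 2.50 over a median of 4.40 to 7.91 in SupB15, and from 4.09 over 6.27 to 9.58 in SupB15-MR replicate 1. The 23 lower genes ran from 4.40 over 6.10 to 10.22 in SupB15, and from 2.88 over 4.30 to 8.98 in SupB15-MR replicate 1. In SupB15, 12 of the 81 higher genes were at or below the cutoff, so that for them the size of the difference is limited by the floor of the array. The same holds for 4 of the 23 lower genes, whose SupB15-MR mean was at or below the cutoff, among them ADIRF-AS1, LAMA4-AS1 and LOXL2-AS1. The remaining 453 genes had a median difference of 0.00. Over all 557 genes the median difference was 0.07, with quartiles of -0.09 and 0.71, and over all genes it was 0.01, with quartiles of -0.45 and 0.60. The 2 SupB15-MR arrays never differed by 2-fold in an antisense gene, and the largest gap between them was 0.99 in EP300-AS1.

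At the level of probe sets, limma called 91 of the 730 antisense probe sets higher (12.5%, against 13.1% of all 46034 tested) and 36 lower (4.93%, against 9.71%), where a call required a 2-fold difference and 0.05 or less for p after Benjamini-Hochberg adjustment over all probe sets. These calls lay in 85 and 31 genes. They rest on limma's variance prior, and a prior from the probe sets that differ between the SupB15-MR arrays gave 139 and 56. A 1-way ANOVA, the test of the study's methods, called 0 antisense probe sets here. It could test only the 375 that differ between the SupB15-MR arrays, of which 111 had an unadjusted p no higher than 0.05. The study's own comparison also held SupB15 cells kept in conditioned medium for different times, so that its set of samples was larger. Of the probe sets at least 2-fold higher in both arrays, 89 of 130 were called, and of those 2-fold lower, 35 of 50. Where the 2 SupB15-MR values of a probe set are equal, it has no residual spread of its own and got the smallest standard error (0.000612). In the text below, "rose" and "fell" are used of probe sets with a call by limma, and the values alone are given for the others.

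The 12 largest differences upwards were led by GTF2I-AS1, which faces the gene of the general transcription factor TFII-I. Its 1 probe set read 4.399 in SupB15, 9.58 in SupB15-MR replicate 1 and 9.400 in replicate 2, a rise of 5.09 (standard error 0.13, adjusted p = 0.0156 from limma). GTF2I has near-identical copies in the genome, so that the source of this signal is uncertain. HMMR-AS1, opposite the gene of a hyaluronan receptor that also acts at the mitotic spindle, rose by 4.89 (standard error 0.07, adjusted p = 0.00759 from limma), from 4.11 to 8.95 and 9.04. HMMR itself differed by -0.38 on average over 2 probe sets. In both antisense genes the SupB15-MR arrays were far above SupB15 and close to each other.

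TNS1-AS1, opposite the gene of tensin 1, which links actin to focal adhesions, stood at 3.03 in SupB15, below the cutoff, and at 7.10 in both SupB15-MR arrays, a difference of 4.08. It passed the filter through the SupB15-MR arrays alone, its size is limited by the floor, and its 1 probe set had the same value in both SupB15-MR arrays. USP3-AS1, opposite the gene of a histone deubiquitinase, likewise passed through the SupB15-MR arrays alone, at 2.80 in SupB15, below the cutoff, and 5.76 and 5.68 in SupB15-MR. ZNF217-AS1, opposite a zinc finger gene amplified in breast cancer, rose from 4.65 to 7.26 and 7.55 (adjusted p = 0.0495 from limma), and RBM12B-AS1, opposite an RNA-binding protein gene, from 4.76 to 7.40 and 7.68 (adjusted p = 0.0470 from limma). The last 2 lay just inside the threshold.

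DSG2-AS1, opposite the gene of the desmosomal cadherin desmoglein 2, had probe sets that disagreed. One stood at 2.55 in SupB15, below the cutoff, and at 9.21 and 9.25 in SupB15-MR, so that its difference of 6.69 is limited by the floor. Another stood at 6.02 in SupB15 and SupB15-MR replicate 1 and at 6.26 in replicate 2. A further probe set did not pass the filter. The gene mean of 3.40 is therefore an average over unlike readings.

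The other 5 of the 12 genes had large differences without a call. ZNF667-AS1 stood at 3.60 in SupB15 and at 7.55 and 8.06 in SupB15-MR (adjusted p = 0.0559 from limma). ZNF276-AS1 stood at 2.83, below the cutoff, 7.09 and 6.54, and its 2 probe sets differed by 4.05 and 3.91, neither called. MIF-AS1, opposite the gene of the cytokine macrophage migration inhibitory factor, stood at 5.74, 8.58 and 8.96 (adjusted p = 0.0581 from limma). EIF2AK3-AS1 faces the gene of PERK, the kinase that slows translation under endoplasmic reticulum stress, and stood at 5.25, 8.36 and 7.95 (adjusted p = 0.0650 from limma). The 2 probe sets of EIF2AK3 itself went apart, neither with a call. One stood at 9.82 in SupB15 and at 8.27 and 7.49 in SupB15-MR, and the other at 4.06, 4.49 and 4.38. GAS5-AS1 faces GAS5, a host gene of small nucleolar RNAs that builds up in arrested cells, and stood at 4.27, 7.23 and 6.88 (adjusted p = 0.0582 from limma). In each of these 5 genes both SupB15-MR arrays lay above SupB15, as the choice of genes required, here by 2.61 or more. Outside the genes chosen by the naming rule, 54 higher antisense genes, some of which are given further on, had mean differences of 1.01 to 2.75.

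**Figure D1:**
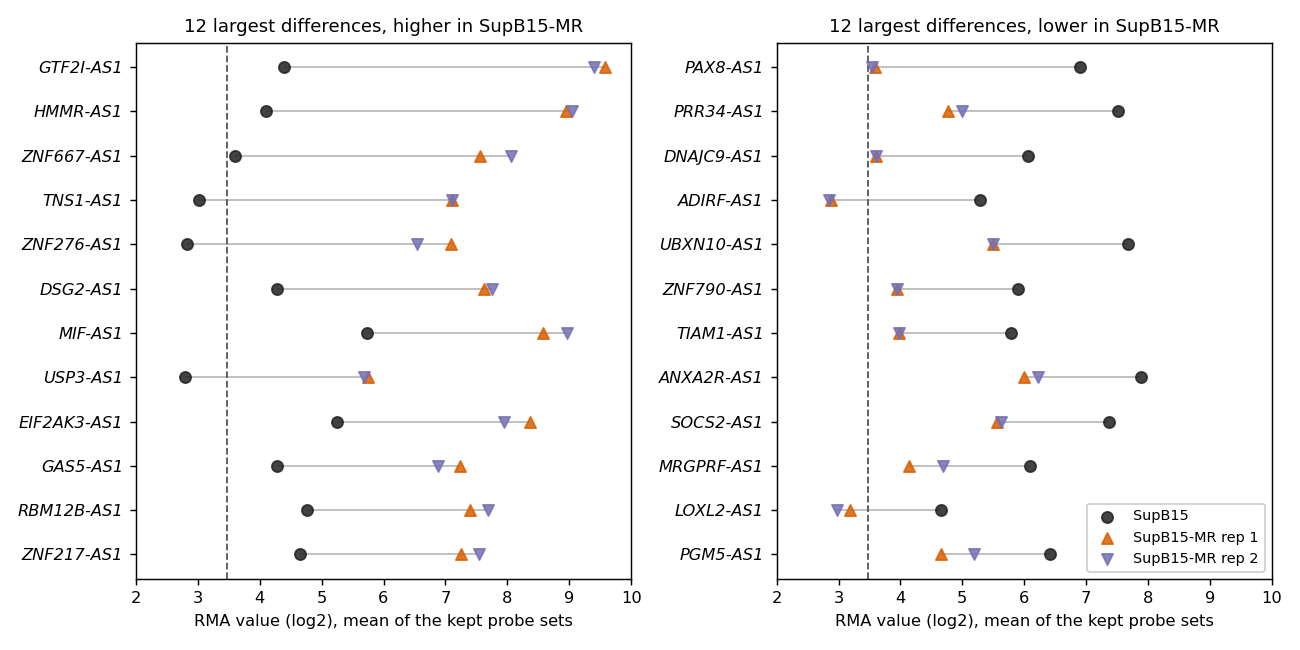
Log2 RMA values of the 12 antisense genes with the largest differences upwards (left) and downwards (right) in the SupB15 array (circles) and the 2 SupB15-MR arrays (triangles), each the mean of the gene's kept probe sets. The dashed line is the filter cutoff of 3.47. All 24 genes were chosen for a 2-fold difference in the same direction in both SupB15-MR arrays. That these arrays lie on the same side of SupB15 follows from this choice. TNS1-AS1, ZNF276-AS1 and USP3-AS1 start below the cutoff.

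The largest difference downwards was in PAX8-AS1, opposite the gene of a transcription factor of thyroid and kidney development. All 3 of its probe sets fell: from 8.09 to 4.09 and 4.19, from 6.49 to 3.01 and 2.85, and from 6.13 to 3.68 and 3.59 (adjusted p = 0.0107, 0.0208 and 0.0162 from limma). The gene mean fell by 3.34. Over its 8 probe sets PAX8 differed by 0.18 on average, and 1 of them fell, by 1.41. The fall of PAX8-AS1 was thus read by every one of its probe sets, and that of PAX8 by 1.

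The other large falls were single probe sets. PRR34-AS1 fell from 7.51 to 4.76 and 4.99 (adjusted p = 0.0408 from limma). DNAJC9-AS1, opposite the gene of a histone co-chaperone, fell from 6.06 to 3.60 in both SupB15-MR arrays (adjusted p = 0.000645 from limma). ADIRF-AS1 fell from 5.28 to 2.88 and 2.85 (adjusted p = 0.00546 from limma), values below the cutoff. UBXN10-AS1 fell from 7.67 to 5.49 in both arrays, TIAM1-AS1, opposite the gene of an activator of the GTPase RAC1, from 5.79 to 3.98 and 3.97, and SOCS2-AS1, opposite the gene of a suppressor of cytokine signaling, from 7.36 to 5.56 and 5.62. In UBXN10-AS1, as in DNAJC9-AS1, the 2 SupB15-MR values were identical.

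ZNF790-AS1 was split: 1 probe set fell by 3.61, from 6.43 to 2.82 and 2.81 (adjusted p = 0.000674 from limma), and the other differed by -0.31. PGM5-AS1 had 1 probe set that fell by 1.34 and 1 without a call at -1.64, whose SupB15-MR values were 5.38 and 6.31. No call was made in ANXA2R-AS1 (7.89 in SupB15, 6.002 and 6.22 in SupB15-MR), MRGPRF-AS1 (6.09, 4.13 and 4.69) and LOXL2-AS1 (4.66, 3.18 and 2.98). The SupB15-MR arrays were lower in each, as the choice of genes required. Of the 12 genes, 10 have a sense partner with a kept probe set, and by gene mean none of these partners was 2-fold apart in both arrays. The nearest was SOCS2, at -0.88 and -1.64 in the 2 arrays. Single probe sets were, besides that of PAX8 given above. Of the 3 of DNAJC9, 1 rose, by 1.91. Of the 3 of SOCS2, 1 stood at -1.47 and -2.32 in the 2 arrays, without a call. Outside the genes chosen by the naming rule, 10 lower antisense genes, some of which are given further on, had mean differences of -1.46 to -1.05.

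Where an antisense gene had several probe sets, they often disagreed. No like spans over all genes were set beside these, so that this is not shown to be particular to antisense genes. Over the 120 genes the median span between the lowest and the highest probe set difference was 1.07, and 61 had a span of at least 1. The widest was GABPB1-AS1, from -2.93 to 3.996, with a gene mean of 0.06. In 7 genes (CCDC18-AS1, CKMT2-AS1, DHRS4-AS1, EFCAB2-AS1, GABPB1-AS1, PSMB8-AS1 and TTC28-AS1) probe sets were 2-fold apart in opposite directions. These genes were named because of that count. Of the 81 higher genes, 15 had several probe sets, and in 7 of them all were 2-fold higher.

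A sense partner with a probe set of its own that passed the filter was found for 488 of the 557 antisense genes. Of these partners 56 (11.5%) were higher and 66 (13.5%) lower by the same measure, near the shares of all genes. Among the 75 paired antisense genes that were higher, the partner was higher in 15 (20%), lower in 7 (9.33%) and neither in 53. Among the 19 that were lower, the partner was lower in 1, higher in 0 and neither in 18. Among the 394 that were neither, the partner was higher in 41 (10.4%) and lower in 58 (14.7%). Most antisense genes that differed between SupB15-MR and SupB15 did so beside a partner that did not pass the same measure. Most partners did not pass it in any case: 366 of all 488, and 295 of the 394 beside antisense genes that were neither. A partner without a difference is therefore not shown to be particular to the antisense genes that differed.

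Across the 488 pairs the antisense and the sense difference had a Pearson correlation of 0.13 and a Spearman correlation of 0.09. All pairs share the same 3 arrays, and pairs are not independent replicates. For scale, the 2 probe sets of the 4390 genes with exactly 2 had correlations of 0.31 and 0.25, so that even readings of a single gene were only loosely alike on these arrays. Without the pairs of DSG2, TNS1 and MIF, chosen after their values were seen, the Pearson correlation was 0.11. Of the 488 pairs in the plot of antisense against sense differences, 295 had neither partner 2-fold apart in both SupB15-MR arrays.

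**Figure D2:**
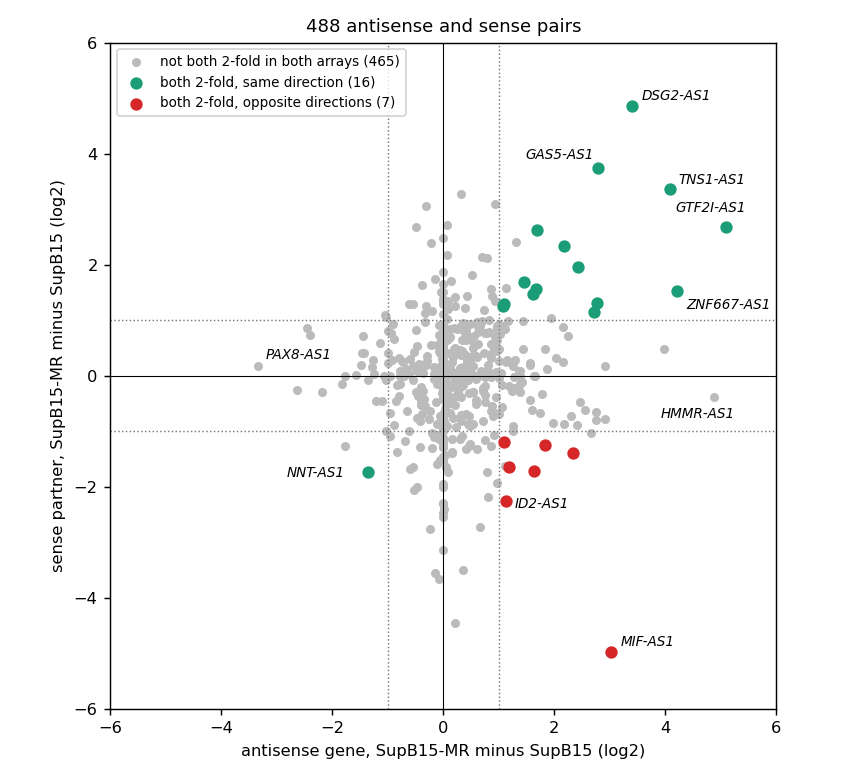
Mean SupB15-MR minus SupB15 difference (log2) of 488 antisense genes (x axis) and of their sense partners (y axis), with dotted lines at 2-fold. Of the 23 coloured pairs with both partners 2-fold apart in both SupB15-MR arrays, 16 lie in the quadrants of equal sign and 7 in the quadrant of a higher antisense and a lower sense gene, with MIF at the bottom.

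In 23 pairs both partners met the 2-fold measure, 16 in the same direction and 7 in opposite directions. In 12 of the 16 and 5 of the 7, each partner had a probe set called by limma. The calls use the same arrays by which the pairs were chosen. Among the called antisense genes, TNS1-AS1, MCM8-AS1, JMJD1C-AS1 and HMGN3-AS1 passed the filter through the SupB15-MR arrays alone. So did the called probe set of DSG2-AS1, although another probe set of that gene passed in every array. The calls are thus a description and no further support for the pairs. These counts moved with the way several probe sets were joined: taking only the brightest probe set by its mean gave 43 pairs, 20 of them opposite, and leaving out probe sets that may read several transcripts (identifiers ending in _s_at, _x_at or _a_at) gave 15, 10 of them in the same direction.

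The pairs with both partners higher were led by DSG2. Its 2 probe sets rose by 5.92 and 3.81, from 3.01 to 8.95 and 8.91 and from 4.08 to 7.90 and 7.87. TNS1 followed its antisense gene in all 5 probe sets, which rose by 2.26 to 5.38. GTF2I rose from 8.43 to 11.11 and 11.12. GAS5 rose by 3.74, from 4.96 to 8.87 and 8.52, by 1 probe set, beside the 2.78 of GAS5-AS1. For the gene means of these 4 pairs the gaps between SupB15 and SupB15-MR were several times those between the SupB15-MR arrays. This follows in part from the choice of pairs. It did not hold for the DSG2-AS1 probe set that differed by 0.12.

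Smaller differences followed in other pairs. MCM8, a helicase of recombination repair, rose in both probe sets, by 1.06 and 3.60, and MCM8-AS1 stood at 2.74, below the cutoff, in SupB15 and at 4.81 and 5.02 in SupB15-MR. MCM3AP, which acts in mRNA export, rose in 4 of 5 probe sets, by 1.13 to 2.44, and MCM3AP-AS1 in 2 of 3, by 1.51 and 2.63. ALKBH3, which repairs alkylated DNA and RNA, rose from 8.07 to 9.72 and 9.81, and 1 of the 2 probe sets of ALKBH3-AS1 rose, by 1.43. SSBP3, a cofactor of LIM-domain transcription factors, rose in all 3 probe sets, by 1.61 to 3.48, and SSBP3-AS1 rose by 1.68. In the zinc finger pair ZSCAN16 the sense gene rose by 1.30 and 1 of 3 antisense probe sets rose, by 2.38, while another did not differ between the arrays.

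Other same-direction pairs rested on unlike probe sets. JMJD1C, a member of a histone demethylase family, had 6 probe sets with differences from -3.24 to 4.46, of which 3 rose, 1 fell and the other two differed by 0.30 and 0.02, while JMJD1C-AS1 stood at 3.34, below the cutoff, in SupB15 and at 6.01 and 6.09 in SupB15-MR. MRTFA, a coactivator of serum response factor, had 4 probe sets higher by 1.20 to 3.26 and 1 at -1.44, none with a call, and MRTFA-AS1 stood at 5.36 in SupB15 and at 7.08 and 6.87 in SupB15-MR. ATP2A1, a calcium pump of the sarcoplasmic reticulum, rose by 2.52 in 1 probe set and did not differ between the arrays in the other, and ATP2A1-AS1 rose by 1.07, from 6.38 to 7.45 in both SupB15-MR arrays. RBM12B rose in 2 of 3 probe sets, by 2.75 and 1.72. In IDI2, an isomerase of isoprenoid synthesis, and IDI2-AS1 the differences were 1.95, without a call, and 2.43, with one. ZNF667 was 1.53 higher on average over 2 probe sets, neither of them called, beside the 4.21 of ZNF667-AS1.

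NNT was the only pair with both partners lower by this measure. NNT encodes the mitochondrial transhydrogenase that makes NADPH. Of its 4 probe sets, 2 fell, by 3.72 (from 7.81 to 3.96 and 4.22) and by 2.25 (from 9.72 to 7.40 and 7.54). The other two differed by -0.74 and -0.20. NNT-AS1 fell by 1.35, from 8.34 to 6.98 in both SupB15-MR arrays (adjusted p = 0.000645 from limma).

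In all 7 pairs with opposite directions the antisense gene was higher and the sense gene lower in SupB15-MR. Of all paired antisense genes 75 were higher and only 19 lower, so that the other order could occur in fewer pairs. The 7 are 9.33% of the 75, below the 13.5% of all partners that were lower. MIF was the most extreme: it fell by 4.97 (standard error 0.35, adjusted p = 0.0433 from limma), from 12.59 to 7.39 and 7.85, while MIF-AS1 was 3.03 higher without a call. Both were read by 1 probe set whose identifier ends in _s_at, which may match several transcripts. ID2, an inhibitor of helix-loop-helix transcription factors such as those of the B lineage, fell in both probe sets, by 2.25 and 2.26, from 8.15 to 5.99 and 5.82 and from 6.55 to 4.38 and 4.20. ID2-AS1 rose by 1.12, from 5.06 to 6.24 and 6.13 (adjusted p = 0.0420 from limma), in the probe set that passed the filter. A second ID2-AS1 probe set below the cutoff read 3.30 in SupB15 and 2.85 in both SupB15-MR arrays.

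LAMA5, a laminin chain, fell from 6.64 to 5.26 and 5.23, and LAMA5-AS1 rose from 5.48 to 7.82 and 7.83 (adjusted p = 0.00298 from limma). HMGN3, a nucleosome-binding protein, fell from 11.85 to 10.13 in both SupB15-MR arrays, and HMGN3-AS1 stood at 2.50, below the cutoff, in SupB15 and at 4.09 and 4.16 in SupB15-MR. KRT10, a keratin, fell by 2.02 and 1.36 in 2 of 3 probe sets, and KRT10-AS1 rose from 6.56 to 7.75 and 7.77. PPM1F, a serine/threonine phosphatase, fell in 2 of 4 probe sets, by 1.98 and 1.23, and PPM1F-AS1 rose by 1.09. PAN3, a subunit of a poly(A) nuclease, stood at 11.36 in SupB15 and 10.19 and 10.01 in SupB15-MR, without a call, and PAN3-AS1 at 7.12, 9.13 and 8.78. Of the 13 kept sense probe sets of the 7 genes, 12 were lower by the 2-fold measure and none was higher. The 7 genes were chosen by the mean of these same probe sets, and MIF, LAMA5, HMGN3 and PAN3 have 1 each. This count therefore follows largely from the choice. Whether both transcripts of a pair were measured in the same cells, and whether each antisense probe set reads only the antisense strand, was not tested.

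**Figure D3:**
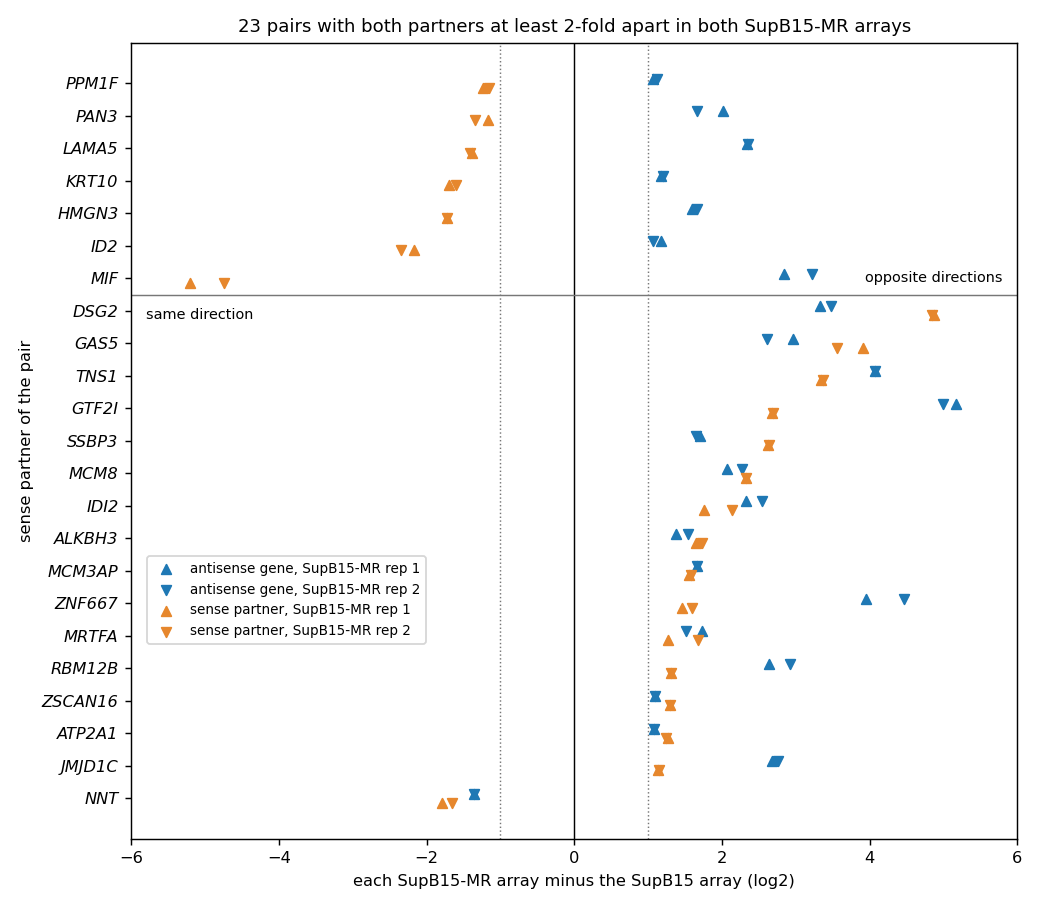
Difference of each SupB15-MR array from the SupB15 array (log2) for the antisense gene (blue) and the sense partner (orange) of the 23 pairs in which both partners met the 2-fold measure, with dotted lines at 2-fold. The 7 pairs of the upper block all have the antisense gene on the right and the sense gene on the left, and NNT at the bottom is the pair with both on the left. Of all paired antisense genes, 75 were higher and 19 lower by this measure.

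The places of both partners were known from the RefSeq table (GRCh38.p14) for 320 pairs, all of them on opposite strands. In 143 the start sites lay within 1000 bases of each other, and in 169 the gene bodies overlapped with the starts farther apart. The antisense gene was higher in 13.3% of the first kind and in 16.6% of the second, and lower in 3.5% and 3.55%. Both partners were 2-fold apart in 5 pairs of the first kind (3 in the same direction, 2 in opposite ones) and in 7 of the second (3 and 4). The Pearson correlation between the 2 differences was 0.06 and 0.03, so that pairs with neighbouring starts were hardly more alike than the others by this description.

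Of the 5 close pairs with both partners 2-fold apart, the promoter windows (250 bases before to 50 after the start, from RefSeq on GRCh38.p14) shared bases in ATP2A1 (221 bases, both partners higher), ID2 (292 bases, antisense higher and sense lower) and NNT (49 bases, both lower). These windows are shown because those of each pair share bases. In ID2 and ATP2A1 the shared bases include bases before both start sites. In NNT all 49 lie after both start sites, and the 250 bases before each start are not shared. Each window is written 5′ to 3′ on its own gene's strand, with the start site after base 250. The shared bases of a pair are therefore reverse complements. Capitals mark CCAAT and GGGCGG on either strand (ATTGG and CCGCCC).
ID2-AS1, chr2:8681814-8682113, strand -: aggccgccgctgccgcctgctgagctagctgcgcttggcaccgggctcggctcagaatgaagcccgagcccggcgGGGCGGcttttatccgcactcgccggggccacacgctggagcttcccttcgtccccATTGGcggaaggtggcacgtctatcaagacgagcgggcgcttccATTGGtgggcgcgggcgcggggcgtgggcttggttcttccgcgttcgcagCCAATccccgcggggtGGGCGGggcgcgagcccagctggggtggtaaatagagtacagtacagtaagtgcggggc
ID2, chr2:8681806-8682105, strand +: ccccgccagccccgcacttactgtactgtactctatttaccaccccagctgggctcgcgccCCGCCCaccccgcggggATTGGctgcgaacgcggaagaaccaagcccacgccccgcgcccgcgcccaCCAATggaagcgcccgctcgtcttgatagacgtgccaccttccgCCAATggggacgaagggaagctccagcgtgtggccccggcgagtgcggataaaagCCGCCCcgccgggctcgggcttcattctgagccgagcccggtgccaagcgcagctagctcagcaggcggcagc
NNT-AS1, chr5:43603181-43603480, strand -: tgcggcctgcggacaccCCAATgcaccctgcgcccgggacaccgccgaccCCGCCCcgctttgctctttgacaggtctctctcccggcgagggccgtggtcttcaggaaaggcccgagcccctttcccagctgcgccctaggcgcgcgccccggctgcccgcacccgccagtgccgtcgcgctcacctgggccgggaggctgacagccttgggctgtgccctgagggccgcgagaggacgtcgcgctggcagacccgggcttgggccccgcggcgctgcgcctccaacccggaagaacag
NNT, chr5:43602930-43603229, strand +: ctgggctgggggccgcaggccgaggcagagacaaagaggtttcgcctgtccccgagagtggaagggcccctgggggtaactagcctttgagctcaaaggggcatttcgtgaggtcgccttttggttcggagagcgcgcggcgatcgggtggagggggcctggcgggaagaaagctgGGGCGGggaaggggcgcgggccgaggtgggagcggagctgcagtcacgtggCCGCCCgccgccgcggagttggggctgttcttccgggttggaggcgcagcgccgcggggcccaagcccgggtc
ATP2A1-AS1, chr16:28879872-28880171, strand -: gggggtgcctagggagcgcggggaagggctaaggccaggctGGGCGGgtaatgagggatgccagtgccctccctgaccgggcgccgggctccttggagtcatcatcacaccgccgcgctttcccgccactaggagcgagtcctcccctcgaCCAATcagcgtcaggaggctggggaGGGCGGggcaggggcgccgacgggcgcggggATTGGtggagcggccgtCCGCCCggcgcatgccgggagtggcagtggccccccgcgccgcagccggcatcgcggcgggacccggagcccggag
ATP2A1, chr16:28879793-28880092, strand +: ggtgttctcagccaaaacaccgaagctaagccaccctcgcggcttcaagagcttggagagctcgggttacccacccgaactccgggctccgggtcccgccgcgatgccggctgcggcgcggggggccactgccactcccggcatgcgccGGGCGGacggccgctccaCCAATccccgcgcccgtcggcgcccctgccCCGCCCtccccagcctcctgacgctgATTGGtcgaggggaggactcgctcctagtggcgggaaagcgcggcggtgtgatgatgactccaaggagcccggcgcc

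The ID2 windows each held 3 matches of CCAAT and 2 of GGGCGG. The ATP2A1 windows held 2 of CCAAT each, with 3 of GGGCGG on the antisense and 2 on the sense side. NNT-AS1 held 1 of each and NNT 2 of GGGCGG. In all 6 windows CG dinucleotides were dense, from 30 to 35, where the median was 14 over 35116 promoter windows of the table and 19 over the 489 windows of the antisense genes. CCAAT was found in 34.6% of all windows and 31.5% of the antisense ones, GGGCGG in 45.0% and 50.9%, and TATAAA in 11.5% and 7.16%. TATAAA was in none of these 6 windows. A match is a description of the letters and not a site in use.

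The antisense genes were also grouped by the symbol family of the sense gene, which leaves many genes of like function among the 370 with other partners, so that the counts below are of symbol families and not of functions. Of all genes, 12.9% were higher and 11.4% lower. The single genes given as examples here, where they have not been named above, were chosen after their values were seen. The 59 genes with partner symbols of transcription factor and zinc finger families held 12 higher (20.3%) and 5 lower (8.47%). Among the higher were FOXD3-AS1 (4.34 in SupB15, 6.13 and 6.09 in SupB15-MR), MEF2C-AS1 (3.45, below the cutoff, 5.64 and 5.32) and SATB1-AS1 (4.23, 5.50 and 5.65), the last of these opposite the gene of a chromatin organizer of lymphocytes. Among the lower were RARA-AS1, opposite the retinoic acid receptor alpha gene (5.76 in SupB15, 4.30 in both SupB15-MR arrays), and THAP9-AS1 (10.22 and 8.98). For these 5 the sense difference was between -0.32 and 0.41. Zinc finger genes proper gave 24 of the 59, with 6 higher and 2 lower.

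The 10 antisense genes with partner symbols of chromatin modifier families held 3 higher (BAZ2B-AS1, HMGN3-AS1 and EP300-AS1) and 0 lower, and JMJD1C-AS1 and USP3-AS1, higher too, lay outside these families. EP300-AS1, opposite the gene of the acetyltransferase p300, stood at 3.40, below the cutoff, in SupB15 and at 6.05 and 5.06 in SupB15-MR. The 12 with partner symbols of cell cycle, DNA replication and repair families held 2 higher, MCM8-AS1 and, by the MCM in its symbol, MCM3AP-AS1, and 0 lower, and ALKBH3-AS1, higher too, lay outside them. The 41 in families of channels, transporters and adhesion genes held 6 higher (14.6%), led by DSG2-AS1 and KCNMA1-AS1 (5.51, 8.19 and 8.32), and 1 lower, LAMA4-AS1.

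In symbol families of kinases, phosphatases, GTPases and receptors, 45 antisense genes held 0 higher and 1 lower, MAPK10-AS1 (4.92 in SupB15, 3.82 in both SupB15-MR arrays), although 2 of their 41 measured partners were higher and 8 lower. Outside these families EIF2AK3-AS1 and RPS6KA2-AS1, opposite kinase genes, PPM1F-AS1, opposite a phosphatase gene, and HMMR-AS1, opposite a receptor gene, were higher. In immune and blood cell families, 20 held 1 higher, MIF-AS1, and 0 lower, beside 3 higher and 4 lower of 18 partners. In this group the tetraspanin gene CD81 differed by -2.30, while CD81-AS1 did not differ between the arrays. The groups are small, they were chosen with earlier results of these data known, and their shares were not tested against each other.

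**Figure D4:**
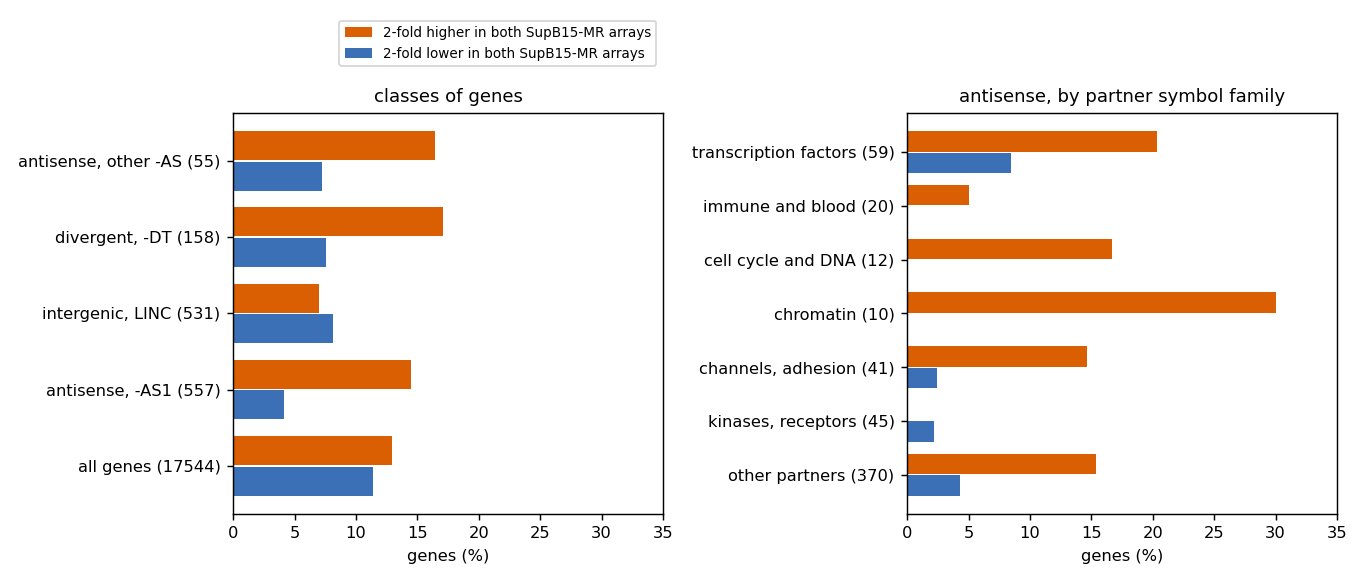
Share of genes (%, x axis) at least 2-fold higher (orange) or lower (blue) in both SupB15-MR arrays, by class of gene (left) and, within the antisense genes ending in -AS1, by the symbol family of the sense gene (right), with the number of genes in brackets. Antisense genes have 14.5% higher and 4.13% lower, beside 12.9% and 11.4% of all genes, and the families are incomplete, so that genes of like function also stand under other partners.

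Of 18 antisense genes listed because they are known from other cells or face a gene of lymphocytes or the cell cycle, 10 passed the filter. CDKN2B-AS1 had a probe set but lay under the cutoff in every array, and 7 had no probe set of their own. OIP5-AS1, a conserved and abundant RNA also called cyrano, had 3 probe sets with differences of -1.42, -0.44 and -0.21, none called, beside a fall of 1.18 in OIP5, a centromere protein gene. ZEB1-AS1 read 6.39 in SupB15 and 5.57 in both SupB15-MR arrays, a difference of -0.83. Its partner ZEB1, a repressor of epithelial genes that also acts in lymphocytes, fell in 2 of 4 probe sets, by 3.88 and 2.22, and another was 0.91 higher.

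LEF1-AS1, opposite the gene of a WNT pathway transcription factor of lymphoid progenitors, was 0.99 higher on average. Of its 2 probe sets 1 rose, by 1.03, and of the 3 of LEF1 1 rose, by 1.47, while the other two differed by 0.00 and -0.02. PRKCQ-AS1, opposite a T cell kinase gene, had 1 of 3 probe sets that rose, from 6.18 to 8.37 and 8.52. CARD8-AS1, opposite the gene of an inflammasome sensor, had 1 of 2 that fell, by 1.22 from 9.02, while 1 of the 4 of CARD8 rose, by 1.89. FGD5-AS1 and TMPO-AS1 differed by 0.16 and -0.31 without a call. GATA3-AS1 read 3.53 in all 3 arrays, near the cutoff.

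PSMB8-AS1, opposite an immunoproteasome subunit gene, had probe sets that went opposite ways. One fell by 1.30, from 9.16 to 7.86 in both SupB15-MR arrays, and the other read 4.89 in SupB15 and 7.14 and 6.89 in SupB15-MR, without a call. PSMB8 itself differed by -0.68. The second of these probe sets is 1 of 3 antisense probe sets that the study's functional gene lists carry under a coding gene's name, there PSMB9. The others are those of GTF2I-AS1, listed as GTF2I, and of ATP2A1-AS1, listed as ATP2A1. For GTF2I and ATP2A1 the coding gene's own probe set, or 1 of them, rose as well. Read as the coding gene, the last 2 probe sets give differences of 5.09 and 1.07, against 2.68 in GTF2I and 1.26 in ATP2A1 from their own probe sets.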

How the data were processed

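Total RNA of 1 SupB15 and 2 SupB15-MR cultures was labelled with biotin by a NuGEN Ovation kit and read on Affymetrix arrays. The authors normalised and summarised the probes with RMA, and deposited a log2 value for each of 54675 probe sets. Genes were named from the platform table, with symbols updated through RefSeq. Of the probe sets 41097 name 1 gene, 1801 several and 11777 none. Probe sets with all 3 values at or below the 20th percentile (3.47) were removed (8641). The 46034 kept were fitted with limma 3.58.1 in R 4.3.3 (1 residual degree of freedom, Benjamini-Hochberg adjustment, calls at an adjusted p of at most 0.05 and at least 2-fold), which was tested on simulated data. Gene values are means over a gene's kept probe sets. Identical SupB15-MR values gave limma a prior standard deviation of 0.00102. With 3 arrays and no sequencing depth, precision is set by the number of arrays.

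The members, lists and partner groups were chosen with earlier results of these data known. The text names the 12 largest differences in each direction, all pairs with both partners 2-fold apart, and the members of a list of known antisense genes. Alternatives were another scaling, filters, probe set choices, variance priors, a 1-way ANOVA and leaving out each SupB15-MR array. RefSeq promoters were found for 418 members and 403 sense partners.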

Additional observations from a re-analysis of the deposited data

How the results depend on the processing

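The median difference of the antisense genes (0.07) turned to -0.12 when array medians were subtracted, which moved the median of all genes from 0.01 to -0.18. It was 0.034 without the filter, 0.41 with only probe sets above the median, 0.45 without probe sets identical in both SupB15-MR arrays, 0.043 with the probe set of highest mean and 0.0053 with that highest in SupB15. The 127 calls by limma (91 higher, 36 lower) became 195 (139 and 56) with a variance prior from the probe sets that differ between the SupB15-MR arrays, and 59 lower with medians subtracted. A 1-way ANOVA, the test named in the methods but run here on these 3 arrays alone, made 0 calls (0 higher, 0 lower). Of the 375 probe sets it could test, 111 had an unadjusted p of at most 0.05, and by limma 412 of 730 did.

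The 23 lower genes became 41 with medians subtracted and 38 with the probe set highest in SupB15. The 23 pairs became 15 (10 in the same direction) without shared probe sets, 43 with the probe set of highest mean and 40 with that highest in SupB15, and the 7 opposite pairs became 20 and 21 under the last 2, 13 with probe sets above the median and 12 without identical ones. The Pearson correlation of 0.13 was 0.11 without the filter, 0.11 above the median, 0.17 without shared probe sets, 0.10 without identical ones, 0.11 with the probe set of highest mean and 0.064 with that highest in SupB15. Leaving out 1 SupB15-MR array gave 115 to 124 genes 2-fold apart (89 to 89 higher, 26 to 35 lower), medians of 0.054 to 0.082, 31 to 31 pairs and correlations of 0.124 to 0.130. The limma calls could not be repeated this way, since no residual degree of freedom is left. No paired analysis was possible because the SupB15 array has no replicate number. Of all values recomputed, 66 stayed within the spread or within 1.5 times the value given, 29 moved further and 1 turned in direction.

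Low signal limits what can be read: 45 antisense genes (8.08%, against 3.61% of all genes) were at or below the cutoff in SupB15, which limits the size and the order of their differences.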

Other observations

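Other RNA genes named after a neighbour gave these counts. Of 55 antisense genes with another number or none after -AS, 9 were 2-fold higher in both SupB15-MR arrays and 4 lower. Of 158 divergent transcripts (-DT), which start beside a coding gene and run away from it, 27 (17.1%) were higher and 12 (7.59%) lower. Of 531 long intergenic RNA genes (LINC), 37 (6.97%) were higher and 43 (8.1%) lower. Of 21 intronic transcripts (-IT), which lie inside an intron of their host, 1 was higher and 6 were lower, by -1.21 to -2.80: AGPAT4-IT1, ANP32A-IT1, ASAP1-IT1, ASAP1-IT2, RUNX1-IT1 and SND1-IT1, named after their values were seen. Of 40 replication-dependent histone genes, whose RNAs lack a poly(A) tail, 34 (85%) were higher and 1 lower, with a median difference of 3.56. That list was added because earlier results of these data showed those genes. None of these shares was tested against that of the antisense genes.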
